A study of Mus musculus with 8 samples.

Results

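The genes described here are 42 genes of cell division that act from entry into mitosis to the separation of the daughter cells. They were taken by gene symbol from a written list, which was chosen with earlier results of these data known. All 42 were found among the 57010 genes of the count table, each as 1 Ensembl gene, and all 42 were among the 17976 genes that passed the filter on low counts. Expression was measured by RNA sequencing in mouse embryonic stem cells, with 2 libraries in each of 4 groups: Control cells with DMSO, Control cells with ganciclovir (GANC), HSVTK cells with DMSO and HSVTK cells with GANC. DMSO is the solvent and serves as the untreated state. The HSVTK cells carry the 2C::HSVTK reporter, named for the thymidine kinase of herpes simplex virus, an enzyme that turns GANC, a nucleoside analogue, into a product toxic to the cell. Per the series' design text the reporter is meant to remove 2C-like cells, a rare state of stem cells that resembles the 2-cell embryo. The labels give no dose, no duration of treatment, no number of clones and nothing on what the Control cells carry. They also do not say whether both libraries of a group came from cultures kept apart; each p-value here is measured against the spread of these libraries alone, and that spread may be technical.

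Mitosis starts when cyclin B binds the kinase Cdk1 and the Cdc25 phosphatases remove its inhibitory phosphates, with Plk1 and Aurka as helper kinases. Chromosomes are then held at their kinetochores by spindle microtubules, and the spindle checkpoint (Bub1, Bub3, Ttk) delays anaphase until all are attached. Cdc20 then activates the anaphase-promoting complex, a ubiquitin ligase that marks cyclin B and securin (Pttg1) for destruction, which frees separase (Espl1) to cut cohesin. Many of these genes are transcribed mainly in G2 and M phase, and mouse stem cells, which have a short G1 phase, express them at high levels. In bulk RNA, fewer cells in G2 and M phase and less RNA of a gene in each such cell cannot be told apart.

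Libraries held 29704460 to 34184475 counts assigned to genes. The 12 stem cell markers (Pou5f1, Nanog, Sox2 and others) all had a mean of at least 1 CPM (counts per 1e+06 counts, here scaled with edgeR's TMM factors), and their summed level was 7062 and 7168 CPM in HSVTK DMSO, 6188 and 6269 CPM in HSVTK GANC and 5887 to 6522 CPM in the Control libraries. With GANC in HSVTK cells 6 of these 12 (50%) were called lower and 0 higher by edgeR. Over all tested genes 15.2% were called lower and 13.3% higher. Of the 12 log2 fold changes, 8 were negative and 4 positive. The summed level of the 11 markers of the 2C-like state was 77.6 and 80.6 CPM in the libraries labelled HSVTK GANC and 30.8 to 39.3 CPM in the other 6. This is the opposite of the direction that removal of such cells would give, and every direction below rests on the labels as given. In the libraries labelled HSVTK GANC, mitochondrial genes took 3.56 and 3.45% of the counts, against 2.88 to 3.17% in the other 6. Markers of other cell types were summed too. The 8 primitive endoderm markers came to 60.4 to 79.6 CPM in HSVTK and 40.7 to 47.7 CPM in Control libraries, and the 10 fibroblast markers to 17.6 to 19.8 and 9.87 to 13.1 CPM. The 8 trophectoderm markers came to 19.8 to 21.9 CPM in HSVTK and 13.4 to 16.2 CPM in Control libraries. Few genes set these sums: 4 primitive endoderm, 2 fibroblast and 3 trophectoderm markers had a mean of at least 1 CPM. Pdgfra is in both the primitive endoderm and the fibroblast list. Of 7 tested trophectoderm markers, HSVTK against Control was positive for 3 and negative for 4 under DMSO, and for 5 and 2 under GANC. The 6 mesoderm markers came to 6.48 to 9.40 CPM and the 7 neuroectoderm markers to 121 to 175 CPM over all libraries. No marker of these lists was at 0 in all libraries. The part of these differences in the results below was not tested.

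Promoters of mitotic genes commonly hold a CHR (cell cycle genes homology region), read by the MuvB complexes that hold these genes silent in early cell cycle phases and activate them in late ones, and CCAAT boxes, bound by NF-Y. RefSeq promoter windows (GRCm38.p6), 250 bases before to 50 after the start, were at hand for 34 of the 42 genes and for 27025 symbols in all. The letters TTTGAA or TTCGAA, on either strand, were found in 28 of the 34 windows (82.4%) and in 19.4% of all windows. Within 50 bases of the start they were found in 26 of 34 (76.5%) and in 5.29% of all. CCAAT, on either strand, was found in 28 of 34 windows (82.4%) and in 37.9% of all. The E2F letters TTTGGCGC or TTTCCCGC, on either strand, were found in 0 of the 34 windows and in 1.63% of all. None of these words contains another, and TTCGAA, which reads the same on both strands, was counted once.

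The 4 windows printed here, 150 bases before to 30 after the start and written along the gene's own strand, belong to the 4 genes with the lowest adjusted p for GANC in HSVTK cells. Of these windows, 3 hold the letters of both motifs (in capitals), while that of Pttg1, the gene with the largest change, holds neither. Pttg1 is from chr11:43425952-43426131 (minus strand), Ccnb2 from chr9:70421525-70421704 (minus), Prc1 from chr7:80294301-80294480 (plus) and Bub1 from chr2:127831830-127832009 (minus).
Pttg1: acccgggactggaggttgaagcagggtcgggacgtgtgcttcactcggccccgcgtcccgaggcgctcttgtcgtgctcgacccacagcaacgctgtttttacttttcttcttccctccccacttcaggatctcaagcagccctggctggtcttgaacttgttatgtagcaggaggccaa
Ccnb2: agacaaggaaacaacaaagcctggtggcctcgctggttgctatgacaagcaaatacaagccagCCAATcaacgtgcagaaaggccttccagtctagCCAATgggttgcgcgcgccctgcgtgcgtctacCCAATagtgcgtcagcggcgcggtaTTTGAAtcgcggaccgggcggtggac
Prc1: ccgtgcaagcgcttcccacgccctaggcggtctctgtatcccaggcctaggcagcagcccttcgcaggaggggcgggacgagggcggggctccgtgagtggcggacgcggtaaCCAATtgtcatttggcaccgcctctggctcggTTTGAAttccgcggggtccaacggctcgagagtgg
Bub1: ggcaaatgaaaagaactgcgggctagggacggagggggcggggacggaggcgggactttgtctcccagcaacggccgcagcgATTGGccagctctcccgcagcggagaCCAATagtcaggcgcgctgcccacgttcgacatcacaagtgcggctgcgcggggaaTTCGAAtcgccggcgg
With the start as base 1, the CHR letters begin at base 5 in Ccnb2, 5 bases before the start in Prc1 and at base 15 in Bub1, where they are TTCGAA. Ccnb2 holds 3 CCAAT boxes, at 87, 54 and 21 bases before the start. Prc1 holds 1 at 37 bases before it, and Bub1 holds 2, at 68 (as ATTGG) and 42 bases before it. A match describes letters and not binding, and no match says only that these letters are not in this window. Prc1 has 2 entries in the promoter table and the first was used.

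Per length, in FPKM (fragments per kilobase, scaled to library size), the 42 genes spanned a wide range. The highest mean over the 8 libraries was that of Cdc20, the activator of the anaphase-promoting complex, at 184 FPKM. Cyclin B1 (Ccnb1) followed at 160 FPKM, the ubiquitin-conjugating enzyme Ube2c at 105 FPKM and cyclin B2 (Ccnb2) at 103 FPKM. The lowest were Cdc25c at 6.28 FPKM, the kinetochore protein Cenpf at 5.62 FPKM and Cdc25b at 4.82 FPKM. As a set they took 0.716 and 0.724% of all counts in Control DMSO, 0.704 and 0.678% in Control GANC, 0.759 and 0.746% in HSVTK DMSO and 0.673 and 0.682% in HSVTK GANC. The share was highest in both HSVTK DMSO libraries, and the lowest values were those of HSVTK GANC and of Control GANC replicate 2. The heat map gives each gene's level by library.

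**Figure D1:**
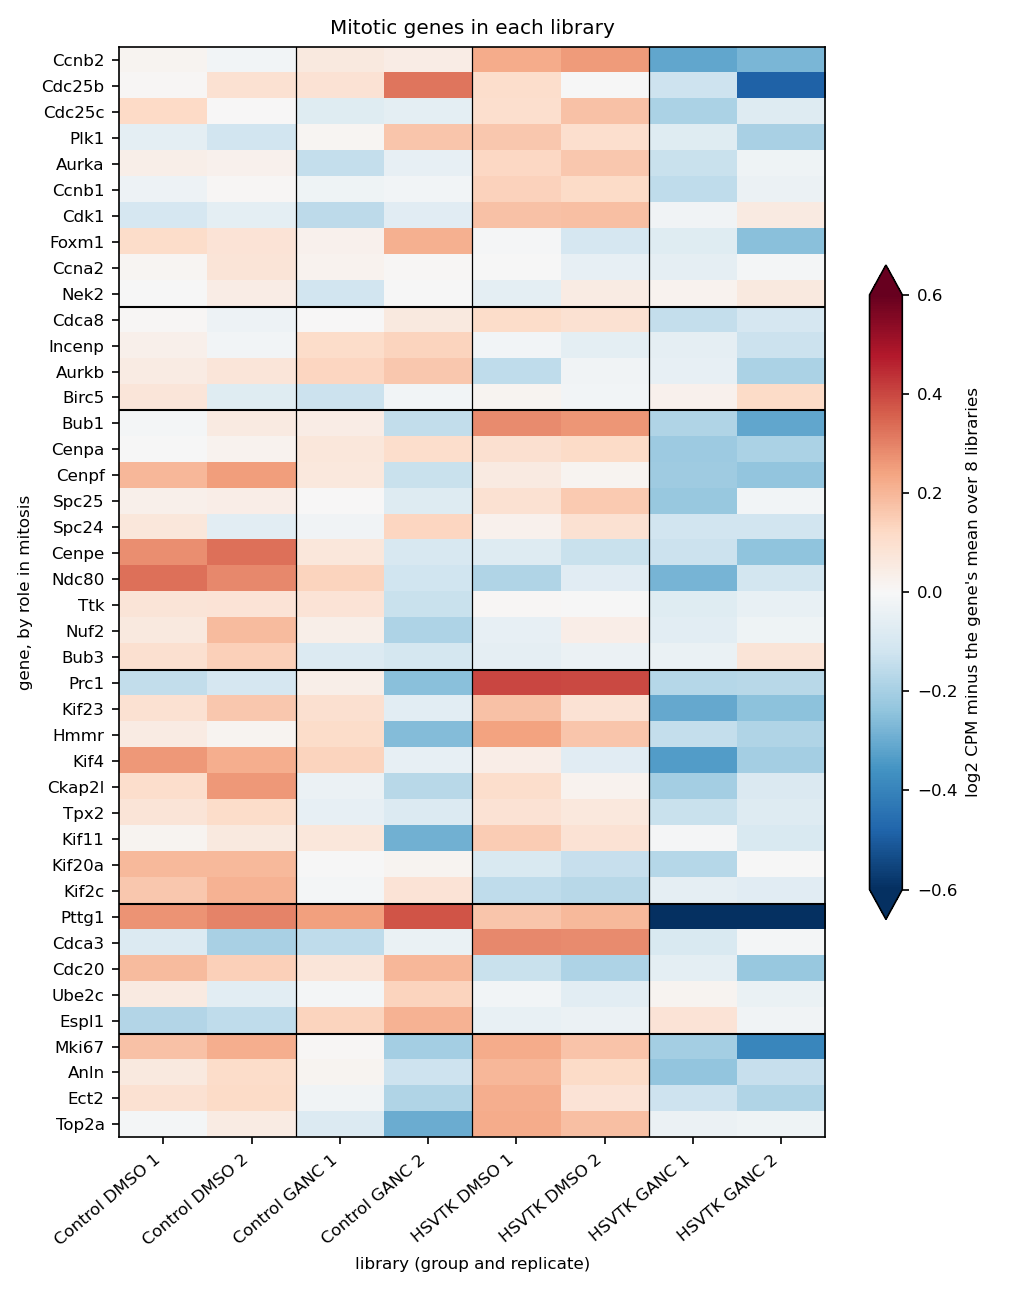
Level of each of the 42 genes (rows, by role) in each of the 8 libraries (columns), as log2 CPM minus the gene's mean over all libraries. The mean of HSVTK GANC is below that of HSVTK DMSO for 34 of the 42 genes, and Pttg1 lies beyond the end of the colour scale there.

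In HSVTK cells a large share of the set was lower with GANC than with DMSO, and none was higher. With edgeR's quasi-likelihood test and Benjamini-Hochberg adjustment over all genes, 24 of 42 genes (57.1%) fell and 0 rose, and the other 18 did not pass. Over all tested genes 15.2% fell and 13.3% rose, a balance that depends on the scaling: it was 2728 lower and 2391 higher with TMM, 2325 lower and 2758 higher with scaling by library size, and 1823 lower and 2203 higher with limma on log2(FPKM + 1). Of the 42 genes, 20 were lower and 0 higher with scaling by library size. Among the 7109 tested genes with a mean CPM at least that of the lowest of the 42 (Cdc25b, 18.01 CPM), 21.6% fell and 17.5% rose. The 42 were chosen with earlier results of these data known, and the part of that choice in their share was not tested. The median log2 fold change of the 42 was -0.21, against 0.01 over all tested genes, and 34 of the 42 values were negative. Changes were small for most: apart from Pttg1, the called genes lay between 0.675 and 0.893 times the DMSO level.

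Pttg1 (ENSMUSG00000020415), or securin, the inhibitor that holds separase until anaphase, changed most. Its level was 62.9 and 64.1 CPM in HSVTK DMSO and 31.3 and 34.3 CPM in HSVTK GANC, against 67.5 and 69.0 CPM in Control DMSO and 66.6 and 72.8 CPM in Control GANC. Both HSVTK GANC libraries lay far below the other 6, which ran from 62.9 to 72.8 CPM. The log2 fold change was -0.95 ± 0.08 (SE), 0.516 times the DMSO level, with an adjusted p of 3.64e-10 by edgeR.

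**Figure D2:**
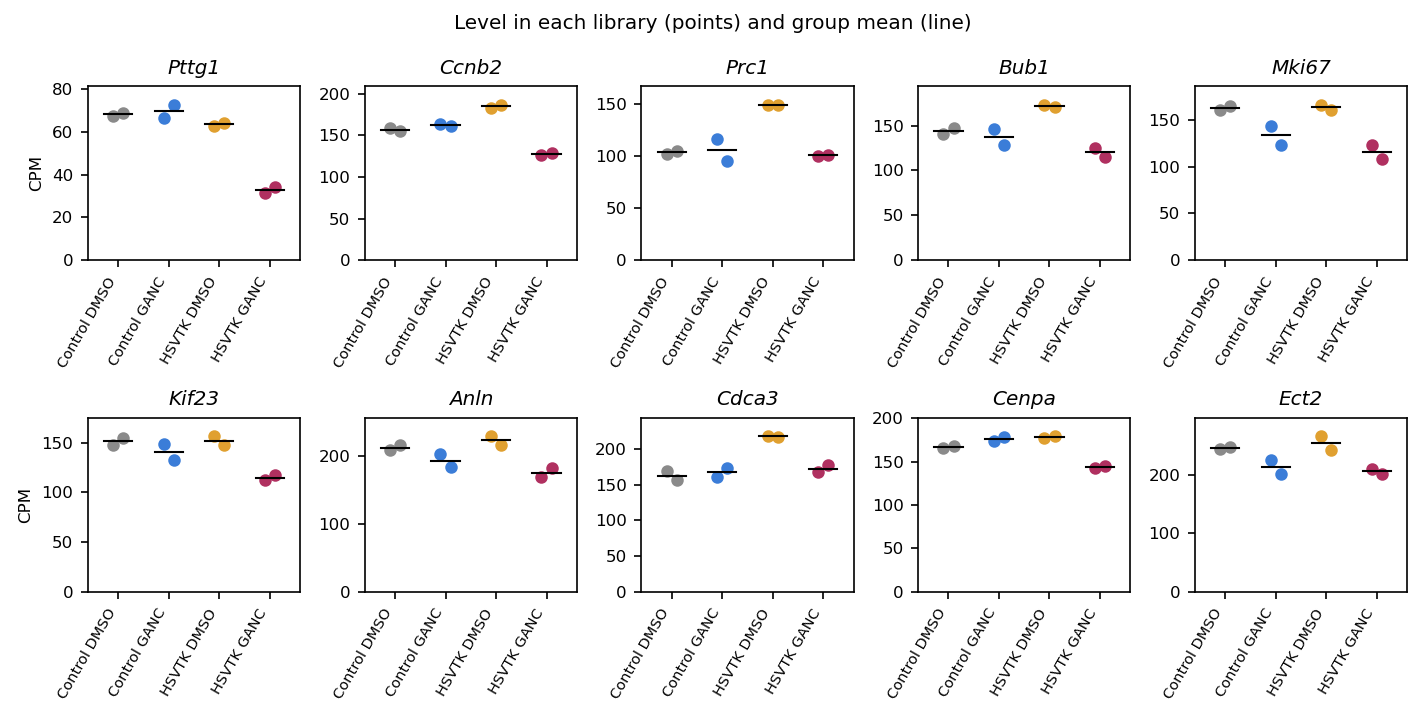
CPM in each library (points) and the mean of each group (line) for the 10 genes with the lowest adjusted p for GANC in HSVTK cells, 2 libraries a group, with axes that start at 0. The HSVTK GANC points lie below the HSVTK DMSO points in every panel, and Pttg1, at 31.3 and 34.3 CPM, is the one furthest below the other groups.

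Of the 10 genes for mitotic entry, 7 fell. Cyclin B2, Ccnb2 (ENSMUSG00000032218), stood at 183 and 187 CPM in HSVTK DMSO and at 126 and 129 CPM in HSVTK GANC, with 155 to 163 CPM in the 4 Control libraries. The HSVTK groups thus lay on either side of all Control libraries. Its log2 fold change was -0.53 ± 0.06, 0.691 times the DMSO level (edgeR adjusted p 8.34e-08). Cyclin B1, with a higher level of 741 and 728 CPM in DMSO and 606 and 657 CPM in GANC, fell by 0.22 ± 0.05 on the log2 scale (edgeR adjusted p 0.00204). The kinases Plk1 (-0.26), Aurka (-0.22) and Cdk1 (-0.16) and the phosphatases Cdc25b (-0.35) and Cdc25c (-0.27) were also called lower. Cyclin A2, Ccna2, which acts from S phase on (-0.01), the centrosome kinase Nek2 (0.04) and Foxm1, the transcription factor of G2 and M genes (-0.11), did not pass. Ccnb1, Ccnb2 and Kif4 have pseudogene copies in the table, and reads could be split between them, since the treatment of reads with several matches is not stated in the labels.

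All 4 genes of chromosome structure, proliferation and cytokinesis fell. Mki67 (ENSMUSG00000031004), which coats mitotic chromosomes and is a common proliferation marker, was at 166 and 160 CPM in HSVTK DMSO and at 124 and 109 CPM in HSVTK GANC, a log2 fold change of -0.49 ± 0.07 (edgeR adjusted p 5.56e-06). In Control cells it was at 161 and 165 CPM with DMSO and 143 and 124 CPM with GANC, so that the GANC libraries of both cell groups met at 124 CPM. Anillin, Anln (ENSMUSG00000036777), the scaffold of the contractile ring, was at 229 and 216 CPM with DMSO and 169 and 181 CPM with GANC in HSVTK cells, and at 208, 215, 202 and 183 CPM in Control DMSO and Control GANC. It fell by 0.34 ± 0.06 on the log2 scale (edgeR adjusted p 0.000123). Ect2 (ENSMUSG00000027699), which activates RhoA at the cleavage site, was at 267 and 243 CPM with DMSO and 211 and 203 CPM with GANC in HSVTK cells, and at 244, 249, 227 and 202 CPM in Control DMSO and Control GANC. It fell by 0.30 ± 0.06 on the log2 scale (edgeR adjusted p 0.000493), and the GANC libraries of both cell groups overlapped. Topoisomerase II alpha, Top2a, which untangles sister chromatids, was called lower at -0.23.

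Of the 9 spindle motors and microtubule proteins, 6 fell. Prc1 (ENSMUSG00000038943), which bundles the microtubules of the central spindle, was at 149 and 148 CPM in HSVTK DMSO and 100.2 and 100.2 CPM in HSVTK GANC. In Control cells it was at 102 and 105 CPM with DMSO and 116 and 94.8 CPM with GANC. Only the HSVTK DMSO libraries stood apart here: HSVTK GANC lay within the range of the Control libraries. The log2 fold change was -0.57 ± 0.07 (edgeR adjusted p 8.90e-07). Kif23 (ENSMUSG00000032254), a motor that works with Prc1 at the central spindle, was at 157 and 148 CPM with DMSO and 112 and 117 CPM with GANC, against 148, 155, 148 and 133 CPM in the Control libraries. It fell by 0.41 ± 0.07 on the log2 scale (edgeR adjusted p 2.88e-05), and here the HSVTK GANC libraries lay below all others. The called values of the rest were -0.37 for the microtubule-binding protein Hmmr, -0.25 for the chromosome motor Kif4, -0.21 for Ckap2l and -0.18 for Tpx2, which activates Aurka on the spindle. Kif11, the motor that pushes the spindle poles apart (-0.17), Kif20a (0.03) and Kif2c, which takes microtubule ends apart (0.10), did not pass.

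Of the 10 kinetochore and checkpoint genes, 4 fell. The checkpoint kinase Bub1 (ENSMUSG00000027379) was at 173 and 171 CPM in HSVTK DMSO and 125 and 115 CPM in HSVTK GANC, with 141, 148, 147 and 128 CPM in the Control libraries. The HSVTK groups again lay above and below all Control libraries. It fell by 0.52 ± 0.07 on the log2 scale (edgeR adjusted p 1.21e-06). Cenpa (ENSMUSG00000029177), the histone H3 variant that marks the centromere, was at 177 and 179 CPM with DMSO and 142 and 145 CPM with GANC in HSVTK cells. It was at 165 to 178 CPM in the Control libraries, so HSVTK GANC lay below the other 6, and it fell by 0.31 ± 0.06 on the log2 scale (edgeR adjusted p 0.000205). Cenpf (-0.26) and Spc25 (-0.24), a subunit of the Ndc80 complex that grips microtubules, were called lower. The other 3 subunits of that complex did not pass, with -0.17 for Spc24, -0.07 for Ndc80 and -0.04 for Nuf2. Nor did Bub3 (0.06), the checkpoint kinase Ttk (-0.06) or the kinetochore motor Cenpe (-0.08).

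Of the 5 genes of anaphase and protein destruction, Pttg1 and Cdca3 fell. Cdca3 (ENSMUSG00000023505), an adaptor for the destruction of the Cdk1 inhibitor Wee1, was at 218 and 218 CPM in HSVTK DMSO and 168 and 178 CPM in HSVTK GANC, a log2 fold change of -0.34 ± 0.06 (edgeR adjusted p 0.000147). The Control libraries lay between 156 and 174 CPM, so it was again HSVTK DMSO that stood apart. Separase (Espl1, 0.07), Cdc20 (0.02) and Ube2c (0.03) did not pass. In the chromosomal passenger complex, which corrects faulty attachments, 1 of 4 subunits was called lower, borealin (Cdca8, -0.22). Its kinase Aurkb (-0.03), its scaffold Incenp (-0.05) and survivin (Birc5, 0.07) did not pass.

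The strength of these calls varied. In all 15 other settings and left-out libraries that were run, 11 of the 24 kept their call: Pttg1, Ccnb1, Ccnb2, Bub1, Cenpa, Kif23, Prc1, Cdca3, Mki67, Ect2 and Anln. The other 13 lost it in at least 1 of them, with a highest adjusted p from 0.0578 (Plk1) to 0.378 (Cdc25b), and Ckap2l lost it in 8. Without HSVTK DMSO replicate 1 the count was 15 of 42, and with limma on log2(FPKM + 1) it was also 15.

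**Figure D3:**
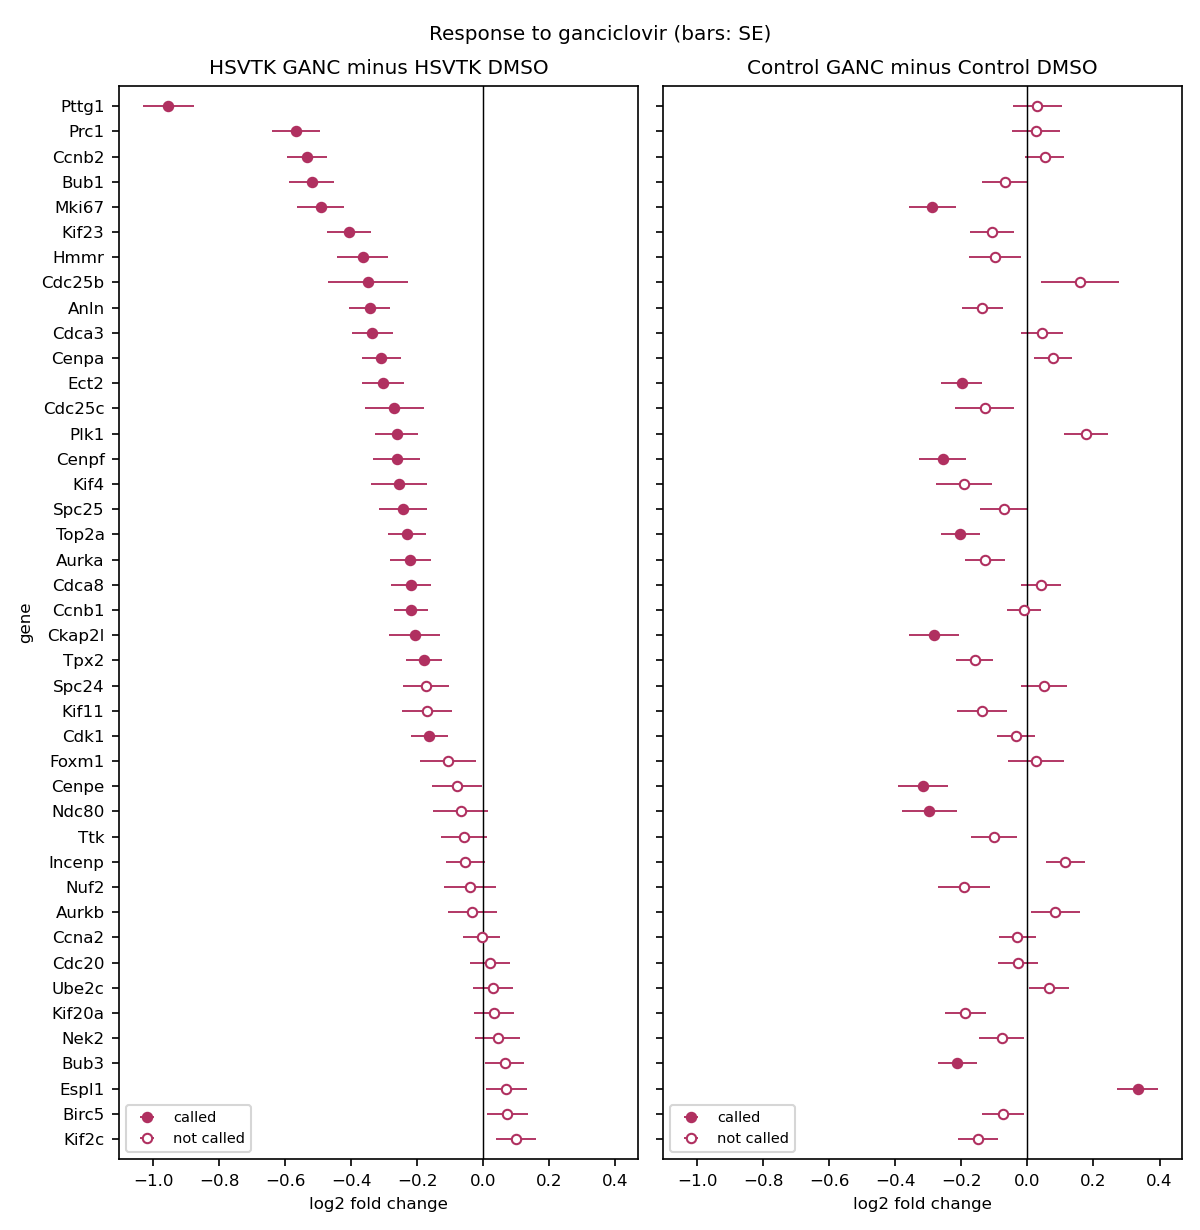
Log2 fold change of GANC against DMSO (points, bars are SE) for the 42 genes in HSVTK cells and in Control cells; filled points are called by edgeR. In HSVTK cells 24 are called, all lower; in Control cells 9 are called, 8 lower and Espl1 higher.

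In Control cells, which serve as the background of the drug, GANC changed fewer of the genes. Here 8 of 42 fell and 1 rose (edgeR), against 3.35% lower and 4.73% higher over all tested genes and 6.32 and 8.09% among the 7109 of like level. The median log2 fold change was -0.08, against -0.00 over all tested genes. Espl1 (ENSMUSG00000058290) was at 130 and 132 CPM with DMSO and 160 and 169 CPM with GANC, and it rose by 0.33 ± 0.06 on the log2 scale (edgeR adjusted p 0.00117). It is the only one of the 9 called in all 15 other settings. Cenpe (ENSMUSG00000045328) was at 76.8 and 79.8 CPM with DMSO and 66.4 and 59.3 CPM with GANC, a log2 fold change of -0.32 ± 0.08 (edgeR adjusted p 0.00878). Ckap2l (ENSMUSG00000048327) was at 73.2 and 81.5 CPM with DMSO and 66.5 and 60.6 CPM with GANC, a log2 fold change of -0.28 ± 0.08 (edgeR adjusted p 0.0208). Mki67, with the values given above, stood at -0.29 ± 0.07 (edgeR adjusted p 0.0112). The other called genes were Ndc80 (-0.30), Cenpf (-0.26), Bub3 (-0.21), Top2a (-0.20) and Ect2 (-0.20). No cyclin, entry kinase or passenger subunit was among them.

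The 8 lower calls in Control cells depended on which libraries were in the fit. Leaving out a library also leaves its group with 1, which by itself can lose calls. The Control GANC libraries were not alike in this, since the lower calls were kept without replicate 1. None of the 8 was called without Control GANC replicate 2 or without Control DMSO replicate 2, 2 were called without Control DMSO replicate 1, and 4 were called when either HSVTK DMSO library, whose spread enters the shared estimate, was left out. With limma on log2(FPKM + 1) the count was 0 lower and 1 higher. Transcript length moved with these values. The log2 ratio of Control GANC replicate 2 to replicate 1 fell with gene length (r = -0.59 with log2 length over the 42 genes, and r = -0.40 over the 7109 genes, which share the same libraries and are not independent). Its median was -0.20 over the 12 longest of the 42, those of 6216 bases or more, and 0.11 over the 12 shortest, of up to 3511 bases. In the comparison of GANC with DMSO in Control cells, the median over the same classes was -0.20 for the longest (10 of 12 negative) and 0.04 for the shortest (5 of 12 negative), with r = -0.42 over the 42. Over the 7109 genes this comparison had no such trend, with r = -0.00 and medians of -0.01 for both the longest and the shortest class. The Control DMSO libraries differed the other way, with r = 0.41 over the 42 and 0.32 over the 7109 for replicate 2 against replicate 1. In HSVTK cells the medians were alike, -0.20 for the longest and -0.21 for the shortest, with r = 0.07 over the 42. The part of length in the Control calls was not tested.

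**Figure D4:**
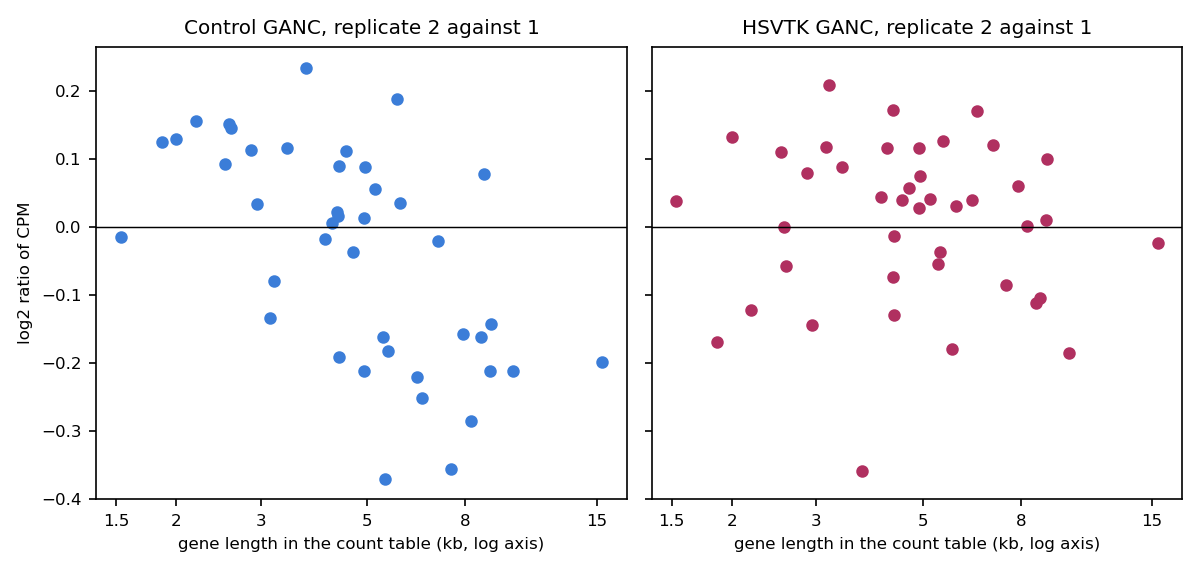
Log2 ratio of CPM in replicate 2 to replicate 1 against gene length (kb, log axis) for the 42 genes, in Control GANC (left) and HSVTK GANC (right). The Control GANC ratio falls with length, from a median of 0.11 in the shortest class to -0.20 in the longest, while the HSVTK GANC medians are 0.06 and 0.01.

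Whether the response to GANC differed between the cell groups was tested as the difference of both responses, HSVTK minus Control. Of the 42 genes, 12 had a lower and 2 a higher response in HSVTK cells (edgeR), against 14% lower and 11.6% higher over all tested genes and 19.7 and 16.3% among the 7109 of like level. The median difference was -0.12, against 0.02 over all tested genes. The largest was that of Pttg1 at -0.98 ± 0.11 (edgeR adjusted p 9.50e-08), since its Control response was 0.03. Then came Prc1 at -0.59 ± 0.10 and Ccnb2 at -0.59 ± 0.08, with edgeR adjusted p of 8.07e-05 and 5.75e-06. Plk1 (ENSMUSG00000030867) was at 140 and 135 CPM in Control DMSO, 148 and 164 CPM in Control GANC, 164 and 157 CPM in HSVTK DMSO and 139 and 128 CPM in HSVTK GANC. Its difference was -0.44 ± 0.09 (edgeR adjusted p 0.000771), made of a response of -0.26 in HSVTK and one of 0.18 in Control cells that did not pass by itself.

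Bub1 (-0.45), Cenpa (-0.39) and Cdca3 (-0.38) completed the 7 differences that were called in all 14 other settings. Cdc25b (-0.51), Kif23 (-0.30), Espl1 (-0.27), Cdca8 (-0.26) and Ccnb1 (-0.21) were lower in the main test, and Bub3 (0.28) and Kif2c (0.25) were higher; each lost its call in at least 4 settings, with a highest adjusted p from 0.0937 to 0.204. For Espl1 and Bub3 the Control response was the called one. Without Control DMSO replicate 1 or without HSVTK DMSO replicate 1 the count was 7 of 42, and without replicate 2 of either it was 9.

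The calls in both cell groups and for their difference give several patterns over the 42 genes. In 11 the response was lower in HSVTK cells, not called in Control cells, and the difference was called lower. In 5 (Cenpf, Ckap2l, Top2a, Mki67 and Ect2) both cell groups were called lower and the difference did not pass. In 8 only the HSVTK response was called and the difference did not pass, so that a difference between the cell groups is not shown for them. For 13 genes nothing was called. Such patterns were not counted over all tested genes, so these counts describe the 42 alone and do not set them apart.

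Under DMSO alone, the cell groups differed in both directions. In HSVTK cells 8 of 42 genes were higher and 8 lower than in Control cells (edgeR), against 16.4% higher and 17.3% lower over all tested genes and 22 and 25.3% among the 7109 of like level. At 19% higher and 19% lower, the 42 lay between these shares, so the counts do not set them apart. Scaling by library size gave 8 higher and 6 lower of the 42, and it turned 2957 higher and 3103 lower calls over all tested genes into 3233 higher and 2818 lower. Prc1 was higher by 0.52 ± 0.07 (edgeR adjusted p 1.67e-06) and Cdca3 by 0.42 ± 0.06 (edgeR adjusted p 3.91e-06) on the log2 scale, with the values in each library given above. Kif2c (ENSMUSG00000028678) was at 175 and 181 CPM in Control DMSO and 141 and 139 CPM in HSVTK DMSO, a log2 fold change of -0.34 ± 0.06 (edgeR adjusted p 4.70e-05). Cenpe was at 60.1 and 57.8 CPM in HSVTK DMSO, against 76.8 and 79.8 CPM in Control DMSO, a log2 fold change of -0.41 ± 0.08 (edgeR adjusted p 9.19e-05).

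By role, the mitotic entry genes that differed under DMSO were all higher in HSVTK cells (4 of 10: Cdk1 0.26, Ccnb2 0.24, Plk1 0.22 and Ccnb1 0.14). Of the kinetochore and checkpoint genes, 4 were lower (Ndc80 -0.43, Cenpe -0.41, Cenpf -0.19 and Bub3 -0.16) and Bub1 was higher (0.25). Of the motors, Kif2c, Kif20a (-0.31) and Kif4 (-0.25) were lower and Prc1 higher. Cdc20 was lower (-0.32) and Top2a higher (0.18). Of the 16, 9 kept their call in all 15 other settings: Cdk1, Ccnb2, Cenpe, Ndc80, Kif20a, Kif2c, Prc1, Cdc20 and Cdca3. The calls of Ccnb1, Plk1, Bub1, Bub3, Cenpf, Kif4 and Top2a were each lost in at least 1, and without Control DMSO replicate 1 the count was 10.

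**Figure D5:**
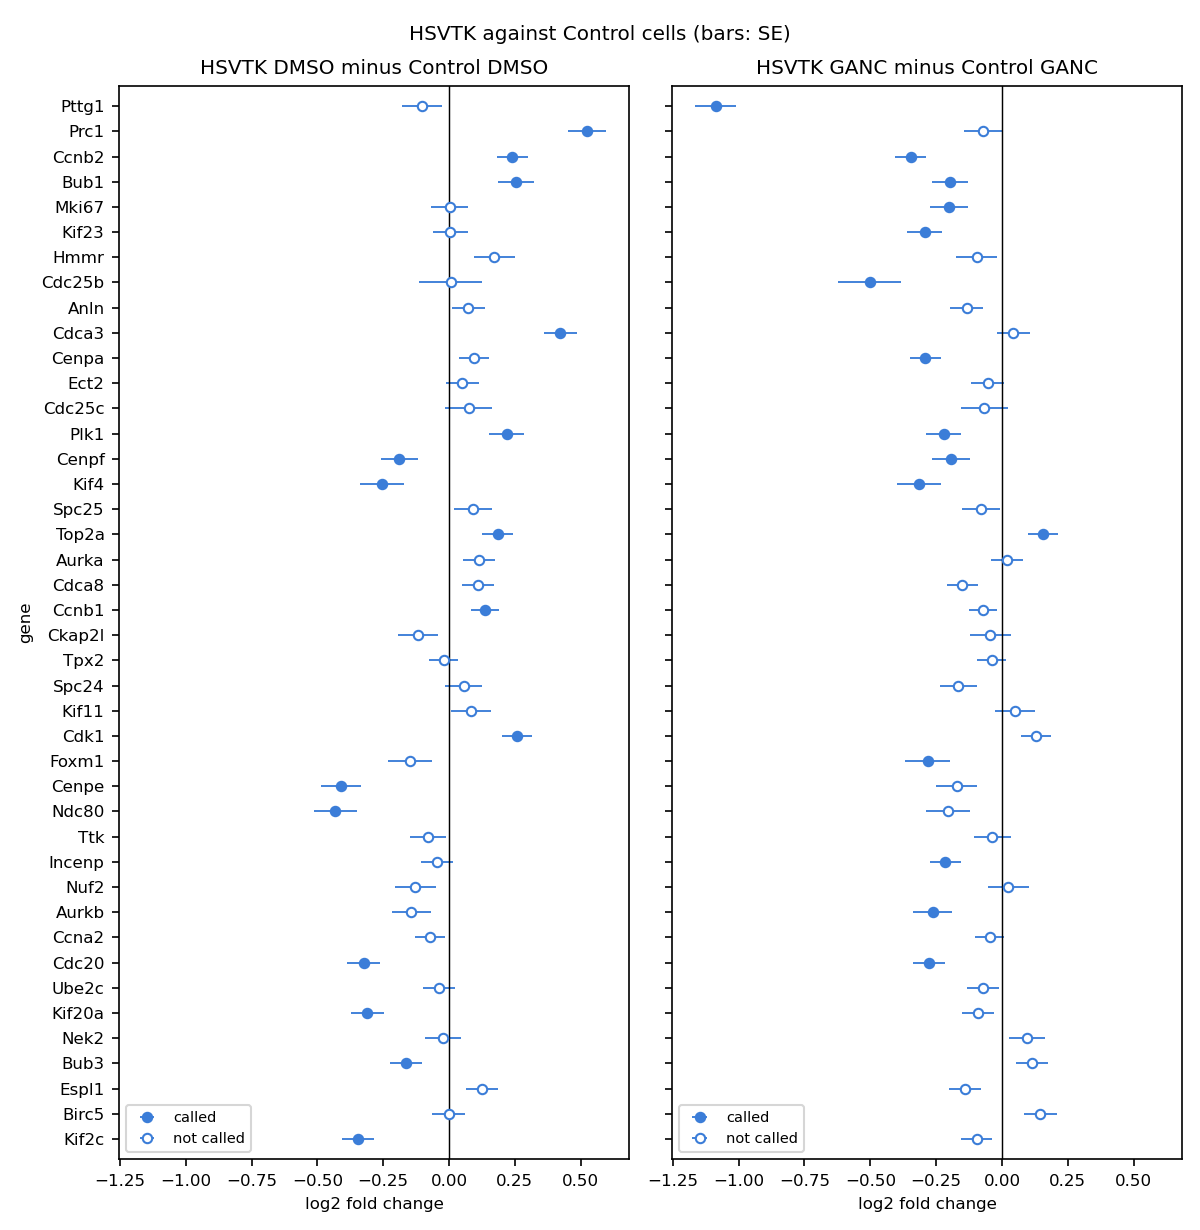
Log2 fold change of HSVTK against Control cells (points, bars are SE) for the 42 genes under DMSO (left) and under GANC (right); filled points are called by edgeR. Under DMSO 8 genes are higher and 8 lower, and under GANC 14 are lower and Top2a alone is higher.

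Under GANC, 14 of 42 genes were lower and 1 higher in HSVTK than in Control cells (edgeR), against 14.9% lower and 11.1% higher over all tested genes and 21.1 and 13.9% among the 7109 of like level. Scaling by library size in place of TMM gave 10 lower and 4 higher of the 42, and over all tested genes it turned 2681 lower and 2004 higher calls into 2190 lower and 2579 higher. Pttg1 was lowest at -1.09 ± 0.08, 0.471 times the Control level (edgeR adjusted p 1.59e-11). Ccnb2 at -0.35 ± 0.06 (edgeR adjusted p 5.84e-05) and Cenpa at -0.29 ± 0.06 (edgeR adjusted p 0.000421) had no overlap between the groups either. Cdc20 (ENSMUSG00000006398) was at 361 and 393 CPM in Control GANC and 329 and 293 CPM in HSVTK GANC, a log2 fold change of -0.28 ± 0.06 (edgeR adjusted p 0.000996). Under DMSO it was at 391 and 378 CPM in Control and 312 and 301 CPM in HSVTK cells, so it was lower in HSVTK cells with either treatment.

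Pttg1, Ccnb2, Cenpa, Cdc20 and Kif23 (-0.29) kept this call in all 15 other settings. The calls of Cdc25b (-0.50), Kif4 (-0.32), Foxm1 (-0.28), Aurkb (-0.26), Plk1 (-0.22), Incenp (-0.21), Bub1 (-0.20), Mki67 (-0.20), Cenpf (-0.19) and Top2a (0.16) were each lost in at least 1, and without HSVTK GANC replicate 2 the count was 7. Prc1 (-0.07) and Cdca3 (0.04), the genes most above Control under DMSO, did not pass under GANC. These comparisons share libraries with those of the drug: a gene that is high in the HSVTK DMSO libraries enters both, and they are not independent of one another.

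Other genes of the pathway, 186 tested genes in further lists, moved in both directions with GANC in HSVTK cells: 39 were lower (21%) and 31 higher (16.7%), with a median log2 fold change of -0.03. These shares are near those among the 7109 genes of like level, 21.6% lower and 17.5% higher. They pool lists that differ. Among the further entry kinases and phosphatases 42.1% were lower and 5.26% higher. Among the further spindle motors and microtubule proteins 6.67% were lower and 26.7% higher. No list was tested as a set, so the counts below describe the lists alone. Among the 19 other kinases and phosphatases of mitotic entry, 8 were lower and 1 higher. They include Nek6, a kinase of spindle assembly (-0.54), and Wee1, which holds Cdk1 inactive (-0.38). Of 11 further checkpoint genes, 3 were lower and 1 higher, with Spdl1 (-0.38) and Kntc1 (-0.31), both of the outer kinetochore, among the lower ones. Of 30 further kinetochore and centromere genes, 7 were lower and 6 higher, among them Mis12 (-0.47) and Cenpm (0.52).

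The 30 further spindle motors and microtubule proteins had 2 lower and 8 higher, among them Nusap1, a microtubule-bundling protein (-0.56), and Psrc1 (0.42). The 18 centrosome genes had 1 lower (Nedd1, -0.36) and 2 higher, among them Stil (0.37), which is needed for centriole duplication. Of 17 genes of the anaphase-promoting complex and its partners, 2 were lower and 5 higher, with the ubiquitin-conjugating enzyme Ube2s at -0.31 and the subunit Cdc23 at 0.37. Of 21 cohesin and condensin genes, 6 were lower and 2 higher, with the condensin subunits Ncaph2 (-0.46) and Ncapd2 (-0.32) lower. Of 16 further cytokinesis genes, 3 were lower and 0 higher, among them Myh10, a non-muscle myosin (-0.53), and Arhgef2 (-0.44). Of 37 genes of G1/S and replication, 6 were lower and 6 higher, with the helicase subunit Mcm6 at -0.39 and Cdk6 at 0.51.

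Among 24 regulators of mitotic transcription, 7 were lower and 6 higher. The pocket protein gene Rbl1 (-0.64), E2f1 (-0.42) and the NF-Y subunit gene Nfyb (-0.44) were lower, while the NF-Y subunit gene Nfyc (0.24), the Cdk inhibitor gene Cdkn1a (0.39) and Trp53 (0.19) were higher. Mybl2, a partner of MuvB, did not pass (0.12). E2f1 was called higher with GANC in Control cells (0.39), and the difference of its responses was -0.81 ± 0.11 (edgeR adjusted p 2.60e-06). Of the genes named from these lists, Kntc1, Stil, Nedd1, Nfyc, Cdkn1a and Trp53 lost their call in HSVTK cells in 1 to 5 of the 15 other settings.

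The genes whose windows hold the CHR letters were set beside the response to GANC in HSVTK cells. Of the 22 genes called lower that have a window, 20 hold them (90.9%), and of the 12 not called, 8 do (66.7%). CCAAT was found in the same numbers, 20 of 22 and 8 of 12. Of the lower genes, Ccnb1 and Pttg1 lack the CHR letters, and Pttg1 and Anln lack CCAAT.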

How the data were processed

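RNA sequencing libraries of 8 samples (4 groups of 2, set by the labelled cell group and treatment) were made from total RNA with a VAHTS Universal V6 kit, per the labels' protocols. Per the submitters' processing notes, the tools were fastp 0.23.2, HISAT2 2.1.0, featureCounts 2.0.1 and DESeq2 1.40.2 and the build GRCm39; no role, strand setting or annotation release is stated there. The authors deposited raw counts per gene and a table of FPKM. All 456080 deposited FPKM values equal the count divided by gene length and by the library's assigned counts, within 1e-05.

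From the counts, edgeR 4.0.16 in R 4.3.3 was run with TMM scaling (factors 0.981 to 1.03), filterByExpr by group and a mean per group over all 8 libraries, leaving 4 residual degrees of freedom. P-values were adjusted by Benjamini-Hochberg over the 17976 genes tested, with calls made below 0.05. The fit was tested on simulated data. Fold changes are log2 with a standard error. The 5 comparisons were GANC against DMSO in each cell group, their difference, and HSVTK against Control under each treatment. Alternatives were scaling by library size, DESeq2 1.42.0, no filter, limma 3.58.1 on log2(FPKM + 1) and log2(FPKM + 0.1), only the 4 libraries compared, the replicate number as a block, and leaving out each library. Running the named genes of other pathway lists under these settings was added after seeing the data.

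The members and lists were chosen with earlier results of these data known. Values in each library are given for the 10 members with the lowest adjusted p for GANC in HSVTK cells and up to 4 called members with the lowest adjusted p in each other comparison. From each other list up to 3 called genes with the lowest adjusted p for GANC in HSVTK cells could be named, and regulators of mitotic transcription always. Replicate numbers were checked for pairing: correlations of the deviations of same-numbered libraries ran from -0.304 to 0.173 over 6 pairs of groups. With 2 libraries a group this check cannot exclude pairing, and the main test used none. Replicates differed by more than counting noise (chi-square per degree of freedom 3.58 to 8.39). Promoters came from RefSeq (GRCm38.p6), another build than that of the counts, so no other coordinates are printed.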

Additional observations from a re-analysis of the deposited data

Results flagged for a closer look

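A response to GANC that differed between HSVTK and Control cells by edgeR's test of the difference itself (HSVTK minus Control, log2) was found for 14 of the 42 genes. It was lower for Pttg1 (-0.98), Prc1 (-0.59), Ccnb2 (-0.59), Cdc25b (-0.51), Bub1 (-0.45), Plk1 (-0.44), Cenpa (-0.39), Cdca3 (-0.38), Kif23 (-0.30), Espl1 (-0.27), Cdca8 (-0.26) and Ccnb1 (-0.21). It was higher for Bub3 (0.28) and Kif2c (0.25). Called differences made up 33.3% of the 42, against 25.6% over all tested genes and 36% among the 7109 of like level. In number they do not set the 42 apart, and 7 of the 14 kept their call in all other settings.

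The same test found a difference for 20 of the genes named from the other lists. It was lower for E2f1 (-0.81), Nek6 (-0.81), Rbl1 (-0.79), Myh10 (-0.77), Arhgef2 (-0.62), Ncapd2 (-0.60), Ncaph2 (-0.59), Nfyb (-0.49), Wee1 (-0.48), Ube2s (-0.47), Nusap1 (-0.47), Mis12 (-0.46), Mcm6 (-0.42) and Spdl1 (-0.31). It was higher for Cdk6 (0.78), Psrc1 (0.67), Stil (0.59), Cdc23 (0.52), Nfyc (0.49) and Cenpm (0.48). The call of Spdl1 was lost in 9 of 14 other settings, with a highest adjusted p of 0.217. Most of the named genes were picked by their call for GANC in HSVTK cells, whose libraries enter this test too. The count of 20 follows in part from that choice and is not a result about the lists. Of the 186 further genes, 34.9% had a called difference, against 25.6% over all tested genes and 36% among the 7109 of like level.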

How the results depend on the processing

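No called gene named here changed the sign of its fold change under any setting that was run for it. Over all tested genes, scaling by library size turned the balance of calls from more lower to more higher for the drug in HSVTK cells and for the cell groups under either treatment. With limma on log2(FPKM + 1) and on log2(FPKM + 0.1), called members numbered 15 and 15 for the drug in HSVTK cells, 1 and 1 for the drug in Control cells and 8 and 8 for the cell groups under GANC, and called genes of all tested numbered 190 and 251 for GANC in Control cells. With only the 4 libraries compared, GANC in Control cells gave 5 members and 942 genes. Leaving out each library in turn gave 15 to 26 members and 3313 to 5627 genes for the drug in HSVTK cells and 1 to 13 members and 433 to 2010 genes in Control cells. It gave 7 to 16 members and 3415 to 4638 genes for the difference of responses. For HSVTK against Control it gave 10 to 17 members and 4399 to 6560 genes under DMSO, and 7 to 18 members and 2999 to 4497 genes under GANC. A group left with 1 library is assumed to vary like the others. With the replicate number as a block, called members numbered 23, 9, 14, 15 and 13 and all called genes 4932, 1339, 4433, 5882 and 4517 for the drug in HSVTK and in Control cells, the difference, and HSVTK against Control under DMSO and GANC. The block moved no count by over 1.5 times. The cause of these shifts was not tested. Where libraries were left out, the fit also held fewer samples. There were 2 libraries a group, and the lowest of the 42 genes, Cdc25b, had a mean of 18.01 CPM and 426 to 671 counts a library. Whether the number of libraries or the depth limited the precision more was not tested.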

Other observations

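Between the cell groups, the called genes of the further pathway lists were more often lower than higher in HSVTK cells under DMSO: of 186 tested genes 57 were lower (30.6%) and 23 higher (12.4%) by edgeR, against 17.3 and 16.4% over all tested genes and 25.3 and 22% among the 7109 of like level. Their median log2 fold change was -0.10. Of 30 further spindle motors and microtubule proteins 16 were lower and 0 higher. Of 11 further checkpoint genes 7 were lower and 3 higher. The checkpoint gene Mad2l1, chosen after its values were seen, was at 206 and 212 CPM in Control DMSO, 216 and 207 CPM in Control GANC, 96.8 and 99.7 CPM in HSVTK DMSO and 99.1 and 101 CPM in HSVTK GANC. Its log2 fold change in HSVTK cells was -1.09 ± 0.06 under DMSO and -1.08 ± 0.06 under GANC (edgeR adjusted p 4.19e-14 and 9.40e-14), while GANC against DMSO did not pass in either cell group (0.03 in HSVTK and 0.02 in Control cells). Bub1b, another checkpoint gene also chosen after its values were seen, had -0.50 ± 0.05 under DMSO and -0.59 ± 0.05 under GANC. The cause of these differences was not tested, and genes chosen this way do not describe the checkpoint genes as a group. Under GANC, 33 of the 186 genes were lower (17.7%) and 17 higher (9.14%) in HSVTK cells, against 21.1 and 13.9% among the 7109. With GANC in Control cells 15 were lower (8.06%) and 7 higher (3.76%), against 6.32 and 8.09%. For the difference of responses 30 were lower (16.1%) and 35 higher (18.8%), against 19.7 and 16.3%.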
